A study of Mus musculus with 8 samples.

Results

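Endothelin, nitric oxide and angiotensin are the main vasoactive systems of the lung vessel wall, and 8 of their genes were followed here across endothelial, mural and fibroblast cells of mice exposed to cigarette smoke or room air. The genes were chosen by name, as 8 of the 33027 genes measured. They were Edn1, Ednra and Ednrb of the endothelin system, Nos3, Gucy1a1 and Gucy1b1 of the nitric oxide system, and Ace and Agtr1a of the angiotensin system. Each sat in its own set of cells: Edn1, Nos3 and Ace in endothelium, Ednrb in aerocytes, and Ednra, Gucy1a1, Gucy1b1 and Agtr1a highest in pericytes. With smoke, Ednra was 1.79-fold higher in adventitial fibroblasts, and this was the only 1 of 25 tested pairs of gene and cell type that passed the test, in a type where 3.1% of all genes did. The call was lost without the filter on genes, with the sequencing lane as a block, and on leaving out any of 5 of the 8 mice.

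Endothelin-1 is released by endothelial cells and contracts the muscle of the vessel wall through the type A receptor, while the type B receptor on endothelium binds and clears it. Nitric oxide made in endothelium diffuses to the neighbouring mural cells, where it activates soluble guanylate cyclase and relaxes them through cyclic GMP. Angiotensin-converting enzyme, held on the surface of lung endothelium, makes angiotensin II from angiotensin I, and the type 1 receptor answers it with contraction and growth.

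The data were single-cell RNA-seq profiles of whole right lungs of 8 C57BL/6 mice carrying Sftpc-CreERT2 and the mTmG reporter, 4 per group. The Cre driver is active in alveolar type II cells, so none of the cell types described here was its target, and all mice of both groups had received tamoxifen. The cigarette smoke (CS) group breathed smoke for 10 months and the room air (RA) group, their littermates, did not. CS mice carried the names C2, C5, D2 and D5, and RA mice F1, F3, M1 and M3. By the labels C2, C5, M1 and M3 were male, and D2, D5, F1 and F3 were female. Cells were sorted with beads on CD45 and recombined at a fixed ratio, so shares of immune and other cells were set by the experiment.

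Levels are given as transcripts per 10,000 of the cell, averaged over the cells of a type in each mouse and then over 8 mice, or 6 in peribronchial fibroblasts. They are compared between cell types within a gene and not between genes. The 10 cell types were taken from the authors' annotation: aerocytes, general capillary (gCap), arterial, venous and lymphatic endothelial cells (EC), pericytes, smooth muscle cells and adventitial, alveolar and peribronchial fibroblasts, which together held 21225 of the 40074 cells used. Libraries held 31094695 to 52753531 transcripts. A type was tested where at least 3 mice per group had 20 or more of its cells, which left 8 types. Pericytes (45 CS and 227 RA cells) and smooth muscle cells (90 CS and 59 RA cells) were not tested across genes. Sex-linked transcripts went against the labelled sex in 4 libraries, all of CS mice, and matched it in the RA libraries.

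The annotation was checked against markers. Apln was highest in aerocytes, Gpihbp1 in gCap cells, Gja5 in arterial EC, Slc6a2 in venous EC, Prox1 in lymphatic EC, Cox4i2 in pericytes and Acta2 in smooth muscle cells. Among fibroblasts, Pi16 was highest in the adventitial, Npnt in the alveolar and Hhip in the peribronchial cells. Other markers of the lists peaked in another type. Of the endothelial lists these were Tbx2 (aerocyte list) in pericytes, Bmx and Sox17 (arterial) in basal and gCap cells, Nr2f2 (venous) in lymphatic EC and Lyve1 (lymphatic) in arterial EC. Of the fibroblast lists they were Ly6a (adventitial) in aerocytes, Limch1 (alveolar) in alveolar type 1 cells and Lgr6 (peribronchial) in basal cells. The summed levels given below hold these genes too. In B cells, taken to stand for free RNA left after the authors' correction for it, the 8 genes had mean levels of 0.00221 (Ednra) to 0.183 (Ace).

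The promoters of 4 of the genes are shown because they stand for the patterns described here: the ligand Edn1 in endothelium, the receptor Ednra that differed with smoke, Gucy1b1 in pericytes and Ace in endothelium. Each is the run of 250 bases before the start of the gene in RefSeq on GRCm38.p6, written 5′ to 3′ on the gene's strand, and the table used holds no entry for Nos3 or Agtr1a. Capitals mark matches, on either strand, to letters that several factors are known to read. The KLF letters searched were CACCC. For the TATA box they were TATAA. For the GATA factors, which act in endothelium among other cells, they were GATAA. For the AP-1 factors, among them Fos and Jun, they were TGACTCA.
Edn1, chr13:42301226-42301475 (+): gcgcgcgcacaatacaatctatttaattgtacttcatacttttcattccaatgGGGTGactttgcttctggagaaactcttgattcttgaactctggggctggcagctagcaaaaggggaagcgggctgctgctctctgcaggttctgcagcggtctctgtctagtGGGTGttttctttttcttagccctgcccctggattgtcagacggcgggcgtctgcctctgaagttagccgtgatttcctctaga
Ednra, chr8:77724453-77724702 (-): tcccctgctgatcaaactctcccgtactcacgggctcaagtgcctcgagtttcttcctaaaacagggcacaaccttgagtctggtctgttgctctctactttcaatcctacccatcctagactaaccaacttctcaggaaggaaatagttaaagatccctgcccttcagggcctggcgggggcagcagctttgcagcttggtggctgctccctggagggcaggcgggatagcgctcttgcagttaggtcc
Gucy1b1, chr3:82074712-82074961 (-): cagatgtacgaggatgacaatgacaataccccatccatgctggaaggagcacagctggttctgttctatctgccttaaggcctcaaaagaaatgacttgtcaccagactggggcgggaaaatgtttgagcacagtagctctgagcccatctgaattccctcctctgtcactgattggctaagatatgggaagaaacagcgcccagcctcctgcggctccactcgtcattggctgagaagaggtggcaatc
Ace, chr11:105967698-105967947 (+): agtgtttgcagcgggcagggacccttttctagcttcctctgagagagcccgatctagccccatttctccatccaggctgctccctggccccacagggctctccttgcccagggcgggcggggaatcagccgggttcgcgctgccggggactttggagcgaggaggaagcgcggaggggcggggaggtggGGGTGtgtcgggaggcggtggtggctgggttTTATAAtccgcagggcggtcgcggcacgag
Edn1 held 2 KLF matches, and Ace held 1 KLF match and an overlapping pair of TATA matches on the 2 strands that begin 30 bases before the start. The windows of Ednra and Gucy1b1 held none of the 4 motifs. Among 32851 windows of this length, 52.0% held the KLF letters, 22.8% the TATA letters, 22.6% the GATA letters and 4.46% the AP-1 letters.

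Where the genes were expressed is shown first. Edn1, the endothelin-1 precursor, was highest in arterial EC (mean 6.31 over 8 mice), followed by gCap cells (4.96) and venous EC (3.17). The mice of neighbouring types overlapped in this order, down to a gap between venous EC and all lower types. Aerocytes, the other capillary cell, held 0.0943. Edn1 thus marked gCap cells among the capillary types.

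The receptors were apart from each other. Ednra, the type A receptor, was highest in pericytes (5.43), then alveolar fibroblasts (3.51), smooth muscle cells (2.89) and peribronchial fibroblasts (2.36), which overlapped with their neighbours in the order. Adventitial fibroblasts (0.942) came next, with no overlap with peribronchial fibroblasts, while 1 smooth muscle value (0.824, M1) fell inside their range. In the endothelial types it was at most 0.00515, and in lymphatic EC it was 0 in every mouse, where 3 counts over all mice would be 0.00854. Ednrb, the type B receptor, reached 15.6 in aerocytes and 0.875 in peribronchial fibroblasts, the next type, with no overlap between them. Lymphatic EC (0.806) and smooth muscle cells (0.695) overlapped with peribronchial fibroblasts, and gCap cells held 0.0527, under the 0.0907 of B cells.

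Nos3, the endothelial nitric oxide synthase, was highest in arterial EC (1.75) and venous EC (1.40), which overlapped. It was lower in gCap cells (0.419), without overlap with venous EC, and 0.0417 in aerocytes. Its receiving enzyme lay in the mural cells. Gucy1a1, the alpha-1 subunit of soluble guanylate cyclase, held 34.5 in pericytes, 5.73 in smooth muscle cells and 0.982 in peribronchial fibroblasts, each apart from the next. Gucy1b1, the beta-1 subunit, held 26.1 in pericytes and 4.16 in smooth muscle cells, again apart, and 0.527 in peribronchial fibroblasts. In gCap cells the subunits were at 0.0219 and 0.0299.

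Ace, angiotensin-converting enzyme, was highest in arterial EC (12.6), aerocytes (10.3) and gCap cells (10.2), which overlapped. Venous EC (5.02) lay below them with no overlap, and lymphatic EC held 0.309. Agtr1a, the type 1a angiotensin receptor, held 3.88 in pericytes and 0.131 in smooth muscle cells, with no overlap. It was 0 in arterial EC of every mouse, where 3 counts would be 0.00617. Ace and the receptor downstream of it were highest in different cells, the enzyme in blood endothelium and the receptor in pericytes.

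**Figure D1:**
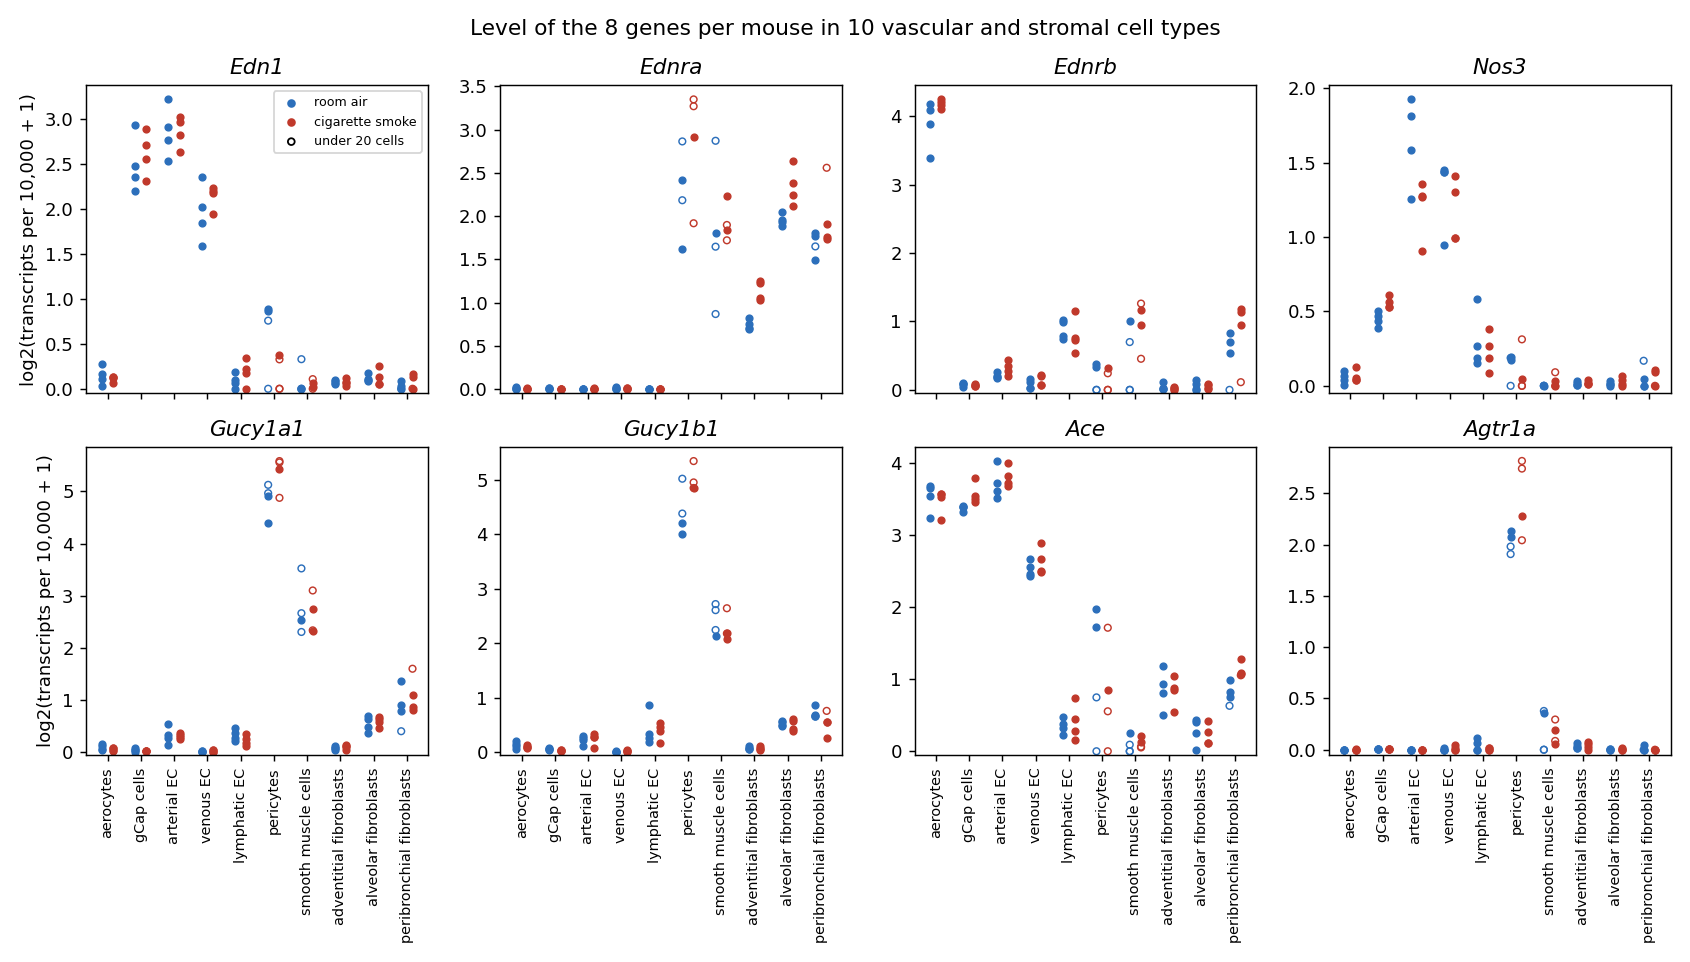
Level of each gene per mouse, as log2(transcripts per 10,000 + 1), in 10 cell types, with RA mice in blue and CS mice in red and open points for mice with under 20 cells of the type. Edn1, Nos3 and Ace sit in endothelium, Ednrb in aerocytes, and Gucy1a1, Gucy1b1 and Agtr1a in pericytes.

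The genes closest in pattern were listed from Pearson correlations of log2 levels over 31 annotated types of the same libraries, among 7579 genes. For Edn1 they were Myrip (r = 0.97), Acer2 and Cyp26b1. Nos3 lay closest to Vwf (r = 0.97), the von Willebrand factor stored by endothelium, and Ace to Flt1 (r = 0.91), a VEGF receptor. For Ednrb they were Ccdc184 (r = 0.95), Chst1 and Slc5a12, and for Ednra they were Tnfrsf19 (r = 0.98), Tbx4 and Ism1. Gucy1a1 and Gucy1b1 were closest to each other (r = 0.99), and Agtr1a to Adcy8 (r = 0.99), an adenylate cyclase. The subunit genes are neighbours on chromosome 3 of GRCm38, on the same strand, with 17737 bases and 0 coding genes between them in GENCODE.

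The question of the exposure was which of these genes differed between CS and RA mice of the same cell type. Of 80 pairs of gene and type, 64 fell in tested types, 39 of these did not pass the filter of 10% of cells, and 25 were tested with limma on log2(level + 1). The difference passed in 1 pair, against 2.05% of all genes tested in the 8 types. An unadjusted p under 0.05 was found in 5 of 25 pairs, against 18.8% of all genes, and 15 of 25 were higher in CS, against 52.8%. CS mice lay above all RA mice in 6 of 25 pairs, against 7.07% of all genes, and below them in 1, against 6.0%. The counts at an unadjusted p and by direction were thus near those of all genes. Agtr1a had no tested pair.

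The genes are taken by role, from the ligand on. Edn1 in arterial EC was 6.81, 7.08, 5.20 and 6.06 in CS mice and 6.49, 8.28, 5.77 and 4.78 in RA mice. The ranges overlapped fully, and the log2 difference was 0.0047 (SE 0.158, limma adjusted p = 0.993), with 0.669% of all genes called in this type. In gCap cells Edn1 was 6.42, 3.96, 4.85 and 5.55 in CS against 3.595, 4.09, 4.57 and 6.65 in RA. This overlapped as well (log2 difference 0.12, limma adjusted p = 0.612), and so did venous EC (0.19, limma adjusted p = 0.583, where 0.13% of all genes were called). The effect in arterial EC minus that in gCap cells was -0.12 (exact permutation p = 0.686, adjusted p = 0.96 over 7 such differences).

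Ednra, the contractile receptor, was higher with smoke in adventitial fibroblasts. There it was 1.37, 1.05, 1.07 and 1.34 in CS mice and 0.635, 0.689, 0.619 and 0.762 in RA mice. Every CS mouse lay above every RA mouse. The means were 1.21 ± 0.172 and 0.676 ± 0.0644 (SD, n = 4 each), a log2 difference of 0.40 (SE 0.0702, limma adjusted p = 0.0218). In this type 7.9% of all genes had all CS mice above all RA mice. The exact two-sided permutation p over mice was 0.0286, the smallest that 4 against 4 mice allow. The call was lost without the filter on genes (limma adjusted p = 0.0921), with the sequencing lane as a replicate block (limma adjusted p = 0.0733), and without C2, D5, F1, F3 or M3 in turn (0.0528 to 0.0644 for C2, D5, F1 and M3, and 0.051 for F3), while the difference stayed at 0.36 to 0.43 with any 1 mouse left out.

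In alveolar fibroblasts Ednra was 3.75, 3.34, 4.22 and 5.22 in CS mice and 2.88, 2.697, 2.82 and 3.14 in RA mice. The groups again did not overlap. The means were 4.13 ± 0.81 and 2.89 ± 0.187 (SD, n = 4 each) and the log2 difference 0.39 (SE 0.116), which did not pass (limma adjusted p = 0.0927). Here 1.37% of all genes were called and 6.7% had all CS mice above all RA mice. The effects in the alveolar and adventitial cells, compared after the values were seen, differed by -0.0047 on the log2(level + 1) scale (exact permutation p = 1, adjusted p = 1). This scale understates the type with the lower level. The ratio of CS to RA means was 1.43 in alveolar and 1.79 in adventitial fibroblasts, so equal effects are not shown. In alveolar fibroblasts the clock output genes summed to 7.62 to 12.5 in CS and 1.69 to 7.32 in RA mice, without overlap. The 5 arterial endothelium markers summed to 1.07 to 1.28 and 0.495 to 0.853, also without overlap. Most of this sum was Gja5, which had a mean of 0.81 in alveolar fibroblasts, against 0.914 for the 5 genes together. The part of these genes was not tested. Peribronchial fibroblasts, with 3 mice per group, had a log2 difference of 0.11 (limma adjusted p = 0.923). Of all genes there, 0% were called by limma, with 622 at an unadjusted p under 0.05 and 0 by edgeR.

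Long genes were higher in CS libraries as a class. In all 8 tested types, genes of 100 kb or more had a median log2 difference of 0.10 to 0.13, and genes under 10 kb one of -0.08 to -0.03. Ednra spans 61.4 kb, and genes of 30 to 100 kb had a median of 0.03 and a 95th percentile of 0.20 in adventitial fibroblasts and of 0.03 and 0.22 in alveolar fibroblasts. These percentiles are of differences on the log2(level + 1) scale, which understates the low genes of the class. The Ednra difference lay above both of them. Ednra is described at length for its call and for the lack of overlap, so this place is not independent of that choice. In adventitial fibroblasts, 4 of 5 tested clock output genes were also higher in CS mice, and the summed level of 8 genes that respond to tissue digestion was 100 to 115 in CS mice and 113 to 136 in RA mice, with 1 of the 8 called lower. The summed level of 5 immune markers was 0.563 to 1.56 in CS and 0.264 to 4.002 in RA mice, and that of 5 epithelial markers 0.79 to 38.2 and 0.166 to 31.8, so that both overlapped. Venous endothelium markers summed to 5.58 to 7.51 in CS and 5.30 to 5.54 in RA mice without overlap. That list holds Nr2f2, which was highest in lymphatic EC and next in pericytes. Peribronchial fibroblast markers, from cells that hold more Ednra, were at 1.61 to 3.16 in CS and 0.904 to 1.65 in RA mice, which overlapped. Markers of the other types with more Ednra overlapped too. Those of alveolar fibroblasts were at 32.9 to 42.4 in CS and 32.0 to 41.1 in RA mice. Pericyte markers were at 0.810 to 1.06 and 0.614 to 0.957, and smooth muscle markers at 1.74 to 2.60 and 1.13 to 2.43. The adventitial markers themselves were at 77.4 to 103.8 and 99.3 to 120.3, each list of 5 genes with none at 0. The part of gene length, clock, digestion and marker genes in the result was not tested.

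**Figure D2:**
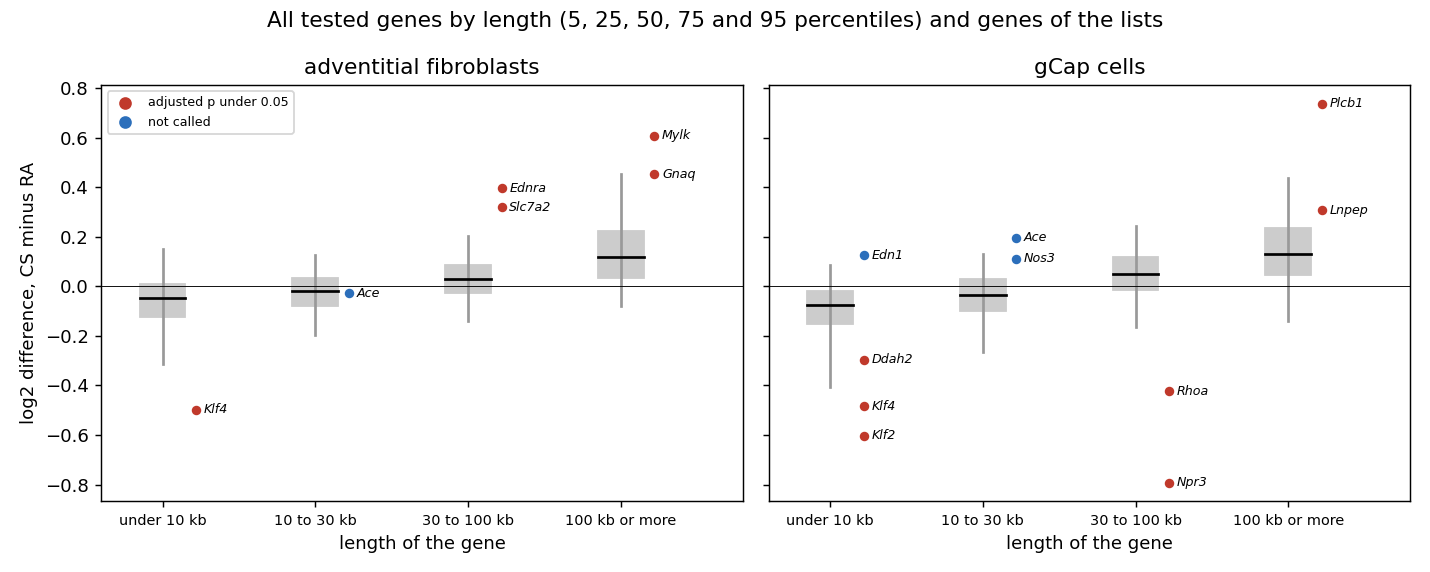
Log2 difference of CS minus RA in adventitial fibroblasts and gCap cells for all tested genes by gene length (line 5th to 95th percentile, box the quartiles, bar the median) and for genes of the lists as points, red where called. Medians rise with length. Ednra, picked out as the called member, is at 0.40, with the 95th percentile of its class at 0.20, a place that is not independent of that choice.

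Ednrb, the clearing receptor, was 16.9, 17.5, 16.3 and 17.97 in aerocytes of CS mice and 9.53, 13.8, 17.03 and 16.03 in those of RA mice. The CS mice were close together, and F1 and F3, the RA mice labelled female, were low among RA mice. The log2 difference was 0.29 (SE 0.158, limma adjusted p = 0.266), and 1.96% of all genes were called in aerocytes. Without F1 the log2 difference was 0.13, and it ran up to 0.39 with another mouse left out. F1 and F3 also had the highest summed level of digestion response genes in aerocytes, at 72.3 and 55.5 against 29.9 to 44.7 in the other mice. Clock output genes summed to 2.65 to 5.43 in CS and 0.766 to 2.41 in RA aerocytes, with 1 of 4 tested called higher. Ly6a was at 35.0 to 41.6 in CS and 41.9 to 58.1 in RA aerocytes. Neither overlapped, and the part of all these genes in the Ednrb values was not tested. In peribronchial fibroblasts Ednrb was 1.19, 0.934 and 1.26 in CS mice and 0.625, 0.787 and 0.448 in RA mice. These did not overlap, as for 8.0% of all genes in that direction, and the log2 difference of 0.40 (SE 0.18) did not pass (limma adjusted p = 0.565). With 3 against 3 mice, the exact permutation p could not go below 0.1. The aerocyte effect minus the peribronchial effect was -0.03 on the log2(level + 1) scale (exact permutation p = 1, adjusted p = 1). This scale understates the lower peribronchial level. Over the mice tested in each type, the ratio of CS to RA means was 1.22 in aerocytes and 1.82 in peribronchial fibroblasts. In lymphatic EC the log2 difference was -0.09 (limma adjusted p = 0.853). There limma called 0% of all genes, with 782 at an unadjusted p under 0.05 and 14 called by edgeR.

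The mean of Nos3 was higher in CS gCap cells and lower in CS arterial EC, and neither difference passed the test. In aerocytes, the other capillary cell, Nos3 did not pass the filter. In gCap cells it was 0.445, 0.444, 0.481 and 0.524 in CS mice and 0.350, 0.384, 0.417 and 0.308 in RA mice. All CS mice lay above all RA mice, which 13.6% of all genes did in this type. The log2 difference was 0.11 (SE 0.0342, limma adjusted p = 0.0616), and 10.3% of all genes were called. In arterial EC it was 1.42, 1.56, 0.876 and 1.41 in CS mice and 2.51, 1.996, 1.39 and 2.80 in RA mice. All RA mice but M1 lay above all CS mice, from 84 to 173 cells per CS mouse and 40 to 70 per RA mouse, without overlap in cell number. The log2 difference was -0.44 (SE 0.145, limma adjusted p = 0.167, exact permutation p = 0.114). The arterial effect minus the venous effect, its 2 highest types, was -0.30 (exact permutation p = 0.371, adjusted p = 0.8), and ran from -0.47 without M1 to -0.12 without F1. The gCap effect minus the arterial effect was 0.55 (exact permutation p = 0.0571, adjusted p = 0.4), a pair of types added after the values were seen. In venous EC the log2 difference was -0.14 (limma adjusted p = 0.635). Other groups of genes also differed in arterial EC: clock output genes summed to 5.29 to 8.81 in CS and 1.82 to 4.23 in RA mice, with 2 of 5 called higher. The 5 aerocyte markers summed to 1.71 to 2.25 in CS and 1.06 to 1.63 in RA mice without overlap. Ly6a, a surface antigen of endothelium in these data, was at 12.9 to 17.4 in CS and 22.4 to 35.4 in RA mice, also without overlap. The 5 arterial markers were at 8.19 to 11.5 in CS and 5.12 to 8.196 in RA mice. The part of these genes and of cell number in the arterial values of Nos3 was not tested.

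**Figure D3:**
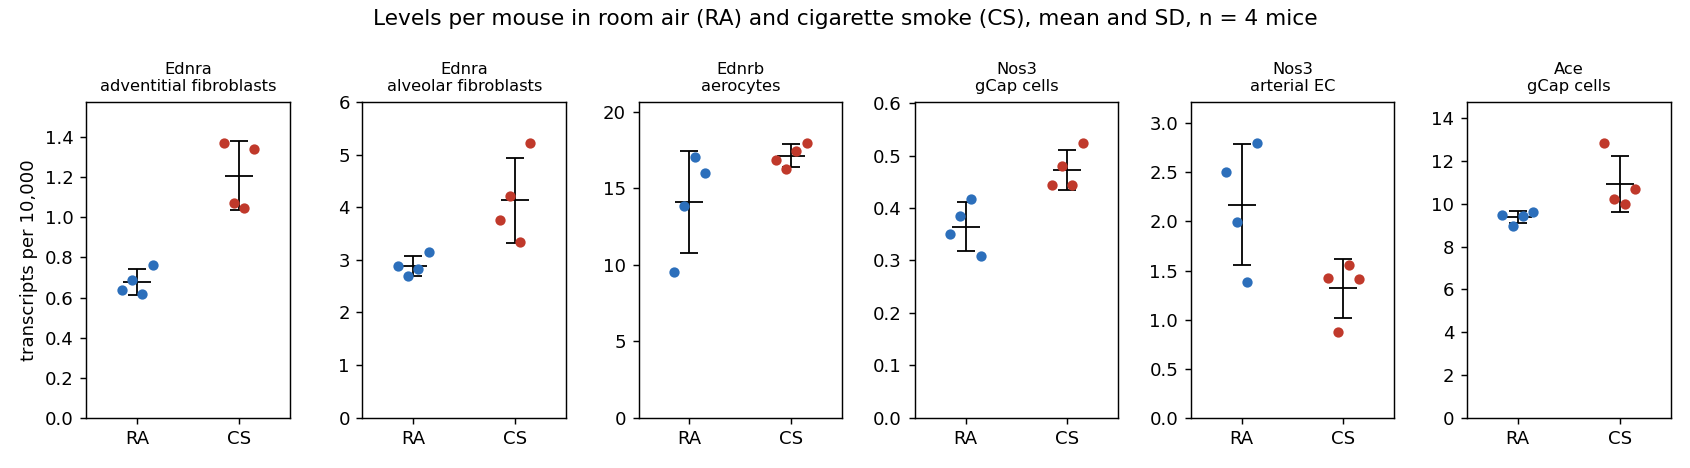
Transcripts per 10,000 in each mouse (points) with the mean and SD of 4 mice (bars) for Ednra, Ednrb, Nos3 and Ace in the types named above each panel. Ednra in adventitial and alveolar fibroblasts and Nos3 and Ace in gCap cells have every CS mouse above every RA mouse, and Nos3 in arterial EC is lower in CS with 1 RA mouse inside the CS range.

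The subunits of soluble guanylate cyclase were tested only outside their main cells. Gucy1a1 had log2 differences of -0.01 in arterial EC, 0.05 in alveolar and -0.09 in peribronchial fibroblasts. Gucy1b1 had -0.02 in lymphatic EC and -0.03 in alveolar fibroblasts, and none of these 5 passed (limma adjusted p from 0.726 to 0.974). In peribronchial fibroblasts Gucy1b1 was 0.473, 0.195 and 0.466 in CS mice and 0.613, 0.587 and 0.828 in RA mice. It was the only tested pair with all CS mice below all RA mice, as for 6.87% of all genes there, and the log2 difference was -0.29 (SE 0.168, limma adjusted p = 0.644), and -0.19 without D2.

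Ace in gCap cells was 12.8, 9.99, 10.2 and 10.7 in CS mice and 9.50, 8.99, 9.44 and 9.60 in RA mice. The groups did not overlap, with the nearest mice at 9.99 and 9.60. The log2 difference was 0.20 (SE 0.104, limma adjusted p = 0.202), and 0.12 without C2. In arterial EC it was 14.98, 11.9, 13.1 and 12.1 in CS mice against 15.3, 12.2, 10.4 and 11.2 in RA mice. These overlapped, and the log2 difference of 0.09 (limma adjusted p = 0.834) turned to -0.02 with summed counts and ran from 0.02 without M1 to 0.19 without F1. In aerocytes it was -0.06 (limma adjusted p = 0.814), and the arterial effect minus the aerocyte effect, its 2 highest types, was 0.14 (exact permutation p = 0.457, adjusted p = 0.8), and ran from 0.02 without M1 to 0.24 without F3. The gCap effect minus the aerocyte effect, compared after the values were seen, was 0.25 (exact permutation p = 0.114, adjusted p = 0.4). In peribronchial fibroblasts Ace was 1.13, 1.44 and 1.11 in CS mice and 0.763, 0.975 and 0.685 in RA mice, with no overlap and a log2 difference of 0.30 (SE 0.182, limma adjusted p = 0.65). In these peribronchial libraries the clock output genes summed to 9.98 to 11.9 in CS and 3.06 to 6.97 in RA mice, and the 5 pericyte markers, of which 1 was at 0, to 1.12 to 1.82 and 0.945 to 1.06, both without overlap. Their part in the peribronchial values of Ednrb, Gucy1b1 and Ace was not tested. The other 3 pairs of Ace, in venous and lymphatic EC and adventitial fibroblasts, had log2 differences of -0.03 to 0.11.

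The gCap libraries differed in other ways that lie beside the Nos3 and Ace values. The digestion response genes summed to 38.9 to 65.6 in CS mice and 74.0 to 110 in RA mice, with 4 of 8 called lower, and all 4 tested clock output genes were called higher. The 5 lymphatic markers summed to 3.40 to 4.56 in CS and 5.23 to 6.25 in RA mice, and Ly6a was at 16.6 to 20.05 and 21.6 to 35.6, both without overlap. Lyve1, among these lymphatic markers, was highest in arterial EC. The 5 gCap markers were at 34.7 to 40.004 in CS and 39.3 to 44.04 in RA mice. Nos3 spans 19.7 kb and Ace 22 kb, and genes of 10 to 30 kb had a median log2 difference of -0.03 and a 95th percentile of 0.13 in gCap cells. On the log2(level + 1) scale, Nos3 lay below this percentile and Ace above it. This scale understates low genes such as Nos3. The ratio of CS to RA means was 1.30 for Nos3 and 1.17 for Ace. The part of these genes was not tested.

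**Figure D4:**
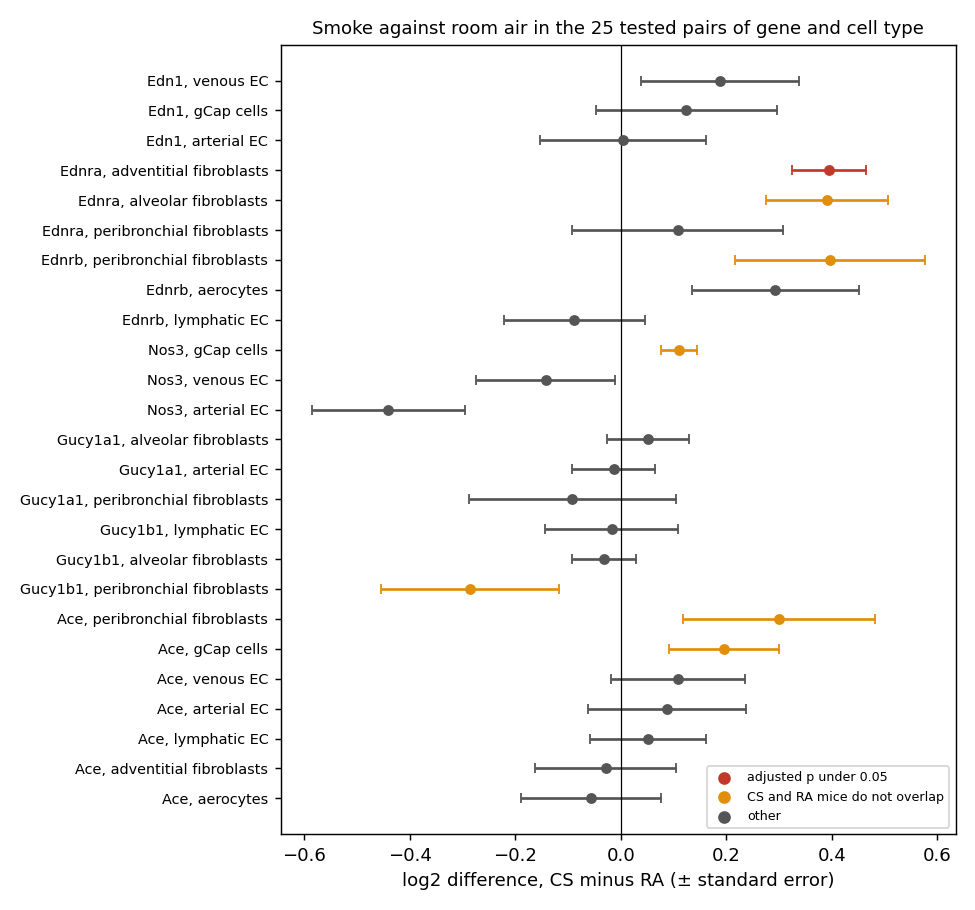
Log2 difference of CS minus RA with its standard error for the 25 tested pairs, red where the limma adjusted p was under 0.05 and orange where CS and RA mice did not overlap. Ednra in adventitial fibroblasts, at 0.40, is the only red point.

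Pericytes held the highest levels of Ednra, Gucy1a1, Gucy1b1 and Agtr1a, from few cells. C2 gave 3 pericytes, C5 10, D2 10 and D5 22, while F1 gave 126, F3 84, M1 13 and M3 4. Gucy1a1 was 46.8, 28.4, 46.0 and 42.1 in CS mice and 19.9, 29.0, 33.9 and 30.2 in RA mice. C5 was the only CS mouse inside the RA range. Gucy1b1 was 39.5, 29.9, 27.7 and 27.8 in CS mice and 15.01, 17.45, 31.3 and 19.8 in RA mice, where M1 reached into the CS range. Agtr1a was 5.69, 6.04, 3.12 and 3.85 in CS mice and 3.39, 3.21, 2.75 and 2.95 in RA mice, so that D2 lay inside the RA range. Ednra was 2.78, 9.20, 8.66 and 6.56 in CS mice and 2.06, 4.36, 6.28 and 3.54 in RA mice, with C2 inside the RA range.

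Each of these 4 had a higher mean in CS mice. The log2 differences were 0.51 for Gucy1a1, 0.60 for Gucy1b1, 0.44 for Agtr1a and 0.59 for Ednra, and the exact permutation p was 0.114, 0.114, 0.0857 and 0.229 (0.152, 0.152, 0.152 and 0.229 adjusted over the 4). The Ednra difference ran from 0.37 without F1 to 0.91 without C2. This comparison without a minimum of cells was added after the values were seen, and most mice gave a handful of cells. The pericyte marker Pdgfrb was 34, 15.4, 19.1 and 19.9 in CS mice and 6.67, 11.5, 17.3 and 13.6 in RA mice, lowest in F1 and F3, and the 5 pericyte markers summed to 59.9 to 148 in CS and 51.9 to 88.8 in RA mice, none of the 5 at 0 throughout. Endothelial transcripts were also found in pericytes, most in F1 and F3, the RA mice labelled female. The summed level of Pecam1, Cdh5 and Cldn5, which mark endothelium, was 21 in F1 and 14.2 in F3 against 0 to 10.2 in the other mice, and Edn1 (0.843 and 0.821) and Ace (2.92 and 2.29) were highest in F1 and F3 too. The digestion response genes summed to 4.45 to 25.4 in CS and 37.6 to 80.5 in RA pericytes. The part of these transcripts in the 4 differences was not tested.

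**Figure D5:**
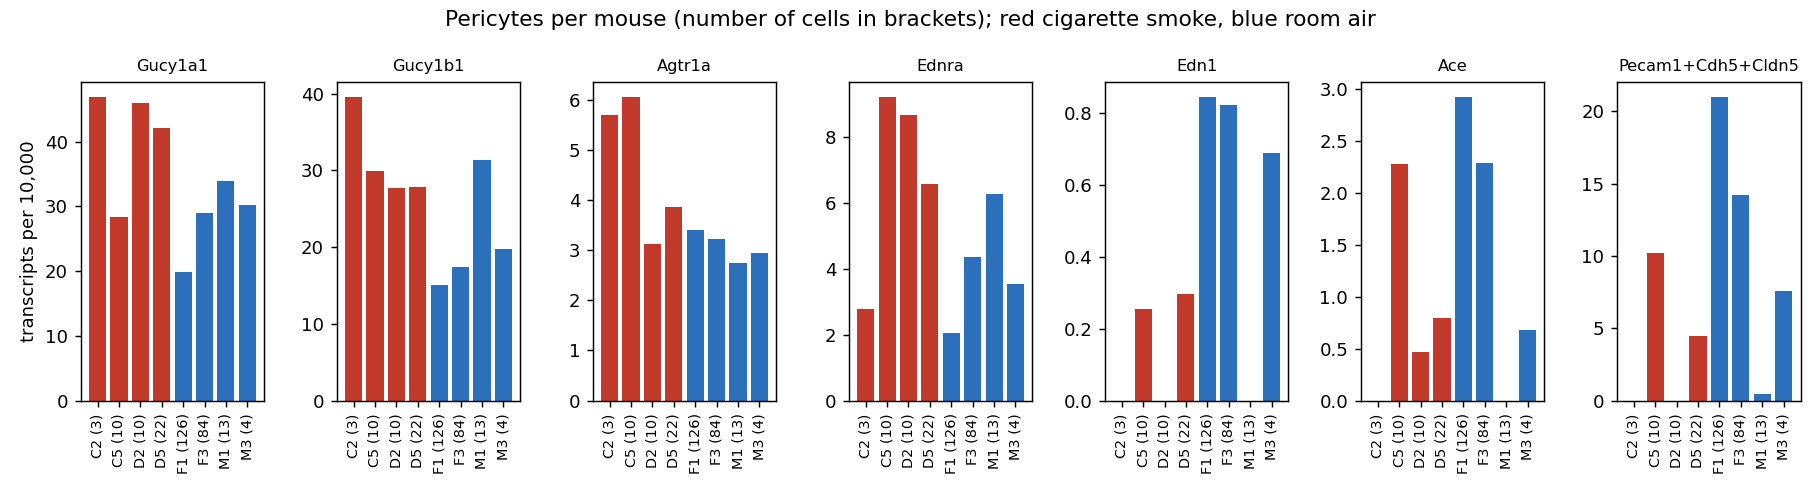
Transcripts per 10,000 in pericytes of each mouse (cell number in brackets), red for CS and blue for RA, for 6 of the genes and the sum of 3 endothelial markers. F1 and F3 hold the highest endothelial sum and the highest Edn1 and Ace.

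In smooth muscle cells, which gave 4 to 35 cells per mouse, the values of both groups ran into each other. Ednra was 2.29, 2.58, 3.71 and 2.73 in CS mice and 2.50, 2.13, 0.824 and 6.32 in RA mice. Gucy1a1 ranged from 3.99 to 7.58 in CS and from 3.94 to 10.5 in RA mice, and Gucy1b1 from 3.23 to 5.23 and from 3.36 to 5.57. All overlapped, and M3, with 4 cells, gave the highest value of each.

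The wider pathways were followed in 7 lists of 65 genes around these systems, members included. Of 283 tested pairs of gene and type, 8 were called higher and 6 lower in CS, against 2.05% of all genes called in either direction over the 8 types. These 14 calls became 0 without the filter on genes, 1 with the lane as a replicate block and 1 to 16 with 1 mouse left out. By list, 1 of 18 pairs of the endothelin list was higher, 2 of 64 of the nitric oxide list were higher and 1 lower, and 1 of 48 of the cyclic GMP list was higher and 1 lower. In the renin-angiotensin list 1 of 42 was higher, in the contractile list 0 of 13 were called, and in the flow-responsive list 3 of 16 were lower. Of the 14 calls, 7 fell in gCap cells, among 33 pairs, where 10.3% of all genes were called, and 5, among 42 pairs, fell in adventitial fibroblasts, where 3.1% were. The median log2 difference of the list genes was -0.01 in gCap cells and 0.04 in adventitial fibroblasts, against 0.01 and 0.0046 over all genes tested.

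In gCap cells Klf2 and Klf4, flow-responsive transcription factors that favour nitric oxide production, fell with log2 differences of -0.60 and -0.48 (limma adjusted p = 0.0336 and 0.0403). This was not particular to gCap cells. In the other endothelial types Klf2 had log2 differences of -0.64 to -0.46 and Klf4 of -0.60 to -0.14, which did not pass. The median of these genes was below 0 in all 8 tested types, from -0.62 in arterial EC to -0.25 in alveolar fibroblasts. Npr3, the natriuretic peptide clearance receptor, fell from 5.01 ± 1.53 in RA to 2.42 ± 0.606 in CS mice (SD, n = 4 each, limma adjusted p = 0.0377). Ddah2, of the nitric oxide list, fell by 0.30 and the small GTPase Rhoa by 0.42 on the log2 scale (limma adjusted p = 0.0312 and 0.0298). The related gene Ddah1 had a log2 difference of 0.18, which did not pass (limma adjusted p = 0.393). Plcb1, a phospholipase downstream of Gq, rose by 0.74 and Lnpep, the angiotensin IV-binding aminopeptidase, by 0.31 (limma adjusted p = 0.0299 and 0.0398).

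In adventitial fibroblasts Gnaq, a Gq subunit, and Mylk, myosin light chain kinase, rose with log2 differences of 0.45 and 0.61 (limma adjusted p = 0.0249 and 0.0268). Gna11, a related subunit, and Rhoa had log2 differences of -0.20 and -0.28, which did not pass (limma adjusted p = 0.194 and 0.129). The arginine transporter Slc7a2 rose from 0.145 ± 0.024 to 0.43 ± 0.0822 (SD, n = 4 each, limma adjusted p = 0.0101), and Klf4 fell by 0.50 on the log2 scale (limma adjusted p = 0.0438). Another arginine transporter, Slc7a1, rose by 0.25 in alveolar fibroblasts (limma adjusted p = 0.0421). In arterial EC Prkg1, the cyclic GMP-dependent kinase, rose from 58.7 ± 10.9 to 90.3 ± 5.04 (SD, n = 4 each, limma adjusted p = 0.0438), beside the clock output and marker sums given for arterial EC with Nos3.

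Length lay beside these calls as well. Of the 8 calls that rose, Prkg1 (1200.5 kb), Plcb1 (689.2 kb), Mylk (257.2 kb), Gnaq (254.6 kb) and Lnpep (103.6 kb) were genes of 100 kb or more, and the others were 59.9 to 72.5 kb long. Of the 6 that fell, Klf2, Klf4 and Ddah2 were at most 5.3 kb long, Rhoa 31.8 kb and Npr3 67.4 kb. Over all genes, 117 of the 180 called higher in adventitial fibroblasts were of 100 kb or more. The same held for 200 of 412 in gCap cells and 20 of 27 in arterial EC. In that length class 117 of 118 calls, 200 of 203 and 20 of 21 were higher, in the same order of types. Of the called genes under 10 kb, 4 of 133 in gCap cells and 6 of 69 in adventitial fibroblasts were higher. Klf2 and Klf4 are also known to respond to tissue digestion, and the digestion response genes were lower in CS gCap cells, as given above. The part of either was not tested.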

How the data were processed

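Single-cell RNA-seq libraries (10x 3′ v3) of right lungs of 8 mice were used, 4 CS and 4 RA. Per the labels and methods, the authors aligned reads with STAR 2.7.3a (STARsolo) to GRCm38.p6 with GENCODE annotation, counted spliced and unspliced transcripts, filtered cells and removed ambient RNA with SoupX. The deposited matrix therefore holds estimated counts, of which 1.28% are whole numbers (within 1e-06), and the authors give mitochondrial percent and cell type for each cell. Annotated multiplets and cycling cells (1032 of 41106) were left out, and no further doublet call was made. Median transcripts per cell were 4254 to 6473, and 197 of 40909 barcode sequences occurred in more than 1 library.

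Each cell was scaled to 10000, averaged per mouse and type, and log2(mean + 1) was fitted with limma 3.58.1 in R 4.3.3, with a mean-variance trend, for genes found in at least 10% of cells of either group. Benjamini-Hochberg adjustment ran over all genes of a type, with a threshold of 0.05. As alternatives, edgeR 4.0.16 was run on summed, rounded counts and the choices in the closing section were changed. A further alternative added the labelled sex as a term, though sex-linked transcripts went against that label in the CS mice. No fit used sex as read from these transcripts. The pipeline was tested on simulated data. For a single value, all assignments of mice to groups were enumerated (exact permutation test, two-sided). Fold changes on the log2(value + 1) scale understate low genes. P-values rest on mice as replicates.

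Members, gene lists and markers were chosen with earlier results of these data known. Full values are given for a member in its highest type and wherever it was called or the groups did not overlap. Values of Edn1 in gCap cells, of Gna11 and Rhoa in adventitial fibroblasts, of Ly6a, and of Ednra and the cyclase subunits in smooth muscle cells were added after they were seen. Library lanes, taken from the labels, put 1 CS and 1 RA mouse together. The count of 1 of the 7 pathway lists is not reported here.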

Additional observations from a re-analysis of the deposited data

How the results depend on the processing

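Ednra in adventitial fibroblasts kept its direction under every alternative run, with a limma adjusted p from 0.0126 to 0.0921. The log2 difference of 0.40 did not pass without a filter on genes or with the lane as a replicate block, under each of which 0 of the 8 genes were called. Leaving out 1 mouse at a time gave 0 to 1 calls and a difference of 0.36 to 0.43. For the pathway lists, 14 calls became 0 without the filter, 1 under the replicate block and 1 to 16 with 1 mouse left out. Deviations of the 2 mice of a lane correlated at -0.27 to 0.39, over 0.1 in 5 of 28 cases. These were lanes 1 and 4 in aerocytes and venous EC and lane 4 in gCap cells. By sex-linked transcripts, lanes 1 and 4 each held 2 mice of the same sex, and lanes 2 and 3 mice of opposite sex. The correlations thus cannot tell lane from sex, and the lane numbers were not taken as pairs. Ace in arterial EC turned to -0.016 with summed counts and -0.047 with edgeR, and Edn1 in arterial EC to -0.0034 in cells with at least 2000 transcripts. Leaving out 1 mouse, Edn1 in arterial EC ranged from -0.10 to 0.13. On the log2(level + 1) scale, the differences between types ranged from -0.072 to 0.064 for Ednra (alveolar minus adventitial). They ranged from -0.38 to 0.048 for Edn1 (arterial minus gCap) and from -0.25 to 0.23 for Ednrb (aerocytes minus peribronchial). The Nos3 difference between gCap and arterial cells was 0.58 with summed counts (exact permutation p = 0.0286, the smallest that 4 against 4 mice allow, and adjusted p = 0.2 over 7 differences), a pair of types chosen after the values were seen. The causes were not tested. The other 181 values kept their direction and side of the threshold. Arterial EC, pericytes, smooth muscle cells and peribronchial fibroblasts had few cells per mouse, which limits their values.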

Other observations

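Several of the genes had a further site of expression outside the vascular and stromal types. Ace was 7.42 ± 2.58 (SD, 8 mice) in the 370 cells annotated ncMono, with mice from 1.5 to 9.44, against 0.183 in B cells. Gucy1a1 was 0.827 ± 0.227 (SD, 8 mice) in mesothelium, from 0.511 to 1.11, while Gucy1b1 was 0.053 there. Edn1 was 0.643 ± 0.543 (SD, 8 mice) in basal cells of the airway, from 192 cells, with mice from 0.0406 to 1.76, the lowest of them inside the range of B cells (0.0168 to 0.0831). Agtr1a was 0.115 ± 0.0541 in club cells and 0.117 ± 0.0511 in mesothelium (SD, 8 mice each).

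Cells annotated as erythrocytes (115 in all) held 1.90 ± 1.46 of Edn1 and 4.55 ± 2.60 of Ace (SD, 8 mice each), both genes of endothelium in these data.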
